A study of Mus musculus with 34 samples.

Results

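RNA sequencing compared cultured macrophages carrying the Jak2 mutation with cultured macrophages lacking Dnmt3a, both exposed to low-density lipoprotein (LDL). The comparison held 6 of the 34 libraries of the series, and 6 of the 24 in its main set: the 3 Jak2VF libraries with LDL (Jak2V617F/WT;Vav-Cre) and the 3 Dnmt3aKO libraries with LDL (Dnmt3afl/fl;Vav-Cre). They were chosen by genotype and treatment as labelled. The 3 Jak2VF and 3 Dnmt3aKO libraries with vehicle, and the 3 WT libraries with LDL (Vav-Cre alone), served for further comparison. All groups carried Vav-Cre, whose promoter is active in blood-forming cells and their descendants. Whether other cells in the cultures were recombined was not tested. Marrow from animals 10 to 14 weeks old was cultured over 6 days in M-CSF (10 ng/ml), the growth factor that turns marrow progenitors into macrophages. The cells were replated, rested for 24 h and given 200 mg/dL LDL or vehicle for 24 h. The labels do not say which libraries came from separate animals, so the p-values measure only the spread between these libraries.

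Jak2 is the kinase that passes on signals from cytokine receptors such as those for erythropoietin, thrombopoietin and G-CSF, chiefly to STAT5 and STAT3, and its V617F form signals without the cytokine. Dnmt3a adds methyl groups to cytosines in CG pairs that were not methylated before. Mutations in both genes are common in clonal haematopoiesis, the expansion of a mutant blood stem cell clone, which gives rise to mutant macrophages that take up LDL in the artery wall.

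The 6 libraries held 24543643 to 42300610 counts each. Levels are given as CPM, counts relative to the scaled library total, which allow a gene to be compared between libraries but not with another gene, since they are not corrected for length. Macrophage genes were present: of 20 macrophage identity genes, 0 were under 1 CPM in all 6 libraries. Csf1r, the receptor for M-CSF, averaged 1720 ± 91.2 CPM in Jak2VF and 2260 ± 114 CPM in Dnmt3aKO (SD, n = 3 each). It was lower in Jak2VF (log2 fold change -0.39, adjusted p = 3.2e-04, edgeR). Genes of stromal cells were present too, with values given below. On a principal component analysis of the 6 libraries the first component held 53.0% of the variance and separated the genotypes. Jak2VF library 2 stood apart in its share of counts in ribosomal protein genes, 3.56%, against 2.46% to 2.71% in the other 5.

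The 2 targeted genes differed in opposite directions. Dnmt3a had 51.6, 43.7 and 52.4 CPM in Jak2VF, against 29.1, 27.6 and 30.4 CPM in Dnmt3aKO, a log2 fold change (log2FC) of 0.76 ± 0.15 (SE; adjusted p = 9.7e-04, edgeR). Dnmt3aKO cells thus kept Dnmt3a counts, and counts summed over the whole gene do not tell reads of the deleted part from the rest. Jak2 had 74.7, 64.2 and 71.1 CPM in Jak2VF, against 113, 129 and 145 CPM in Dnmt3aKO (log2FC -0.88 ± 0.13, adjusted p = 6.4e-05). Against WT with LDL the log2FC of Jak2 was -0.22 in Jak2VF (adjusted p = 0.273) and 0.66 in Dnmt3aKO (adjusted p = 0.00166). Counts per gene cannot show the V617F change, so this label was not tested.

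Of 19444 genes tested, 3042 (15.6%) differed between Jak2VF and Dnmt3aKO with LDL at an adjusted p under 0.05. In Jak2VF 1674 of them (8.61%) were higher and 1368 (7.04%) lower, with a median absolute log2FC of 0.70 among the called genes. The difference was at least 2-fold for 448 higher (2.3%) and 441 lower genes (2.27%), and at least 4-fold for 67 higher (0.345%) and 134 lower genes (0.689%). The 6 libraries did not overlap between the genotypes for 6990 genes (35.9%), and 3020 (15.5%) were both called and without overlap. Without Jak2VF library 2 the count of called genes was 2445, with 1251 higher and 1194 lower. With library totals alone as the scale the count was 3405, of which 2376 were higher, 69.8% in place of 55.0%, and the median log2FC of all genes was 0.08 in place of 0.00.

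**Figure D1:**
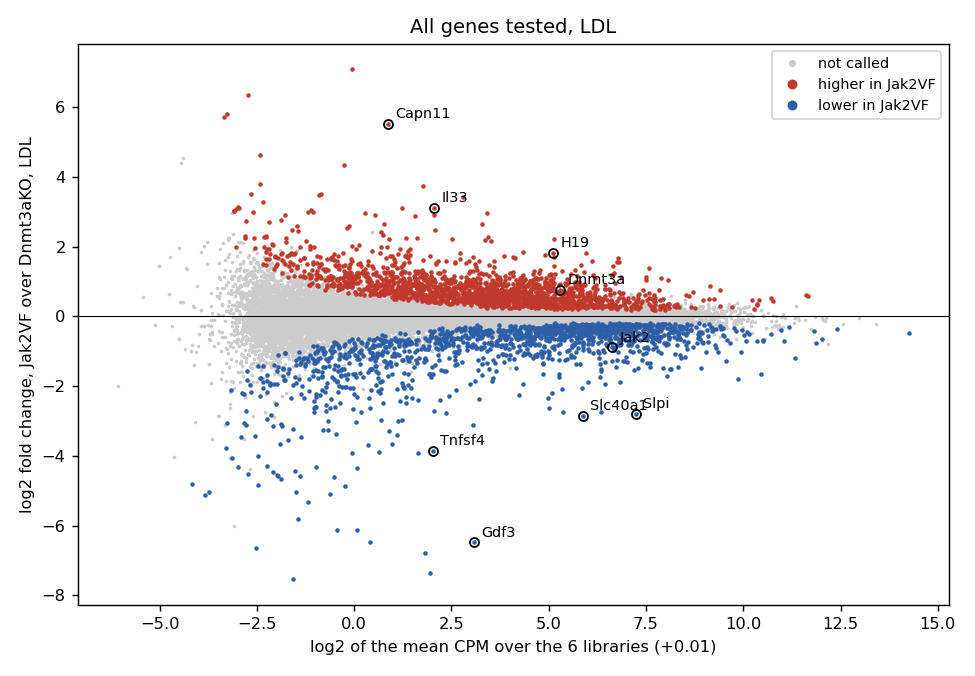
Each point is 1 of 19444 genes tested. The horizontal axis gives the log2 of the mean CPM over the 6 LDL libraries and the vertical axis the log2 fold change of Jak2VF over Dnmt3aKO, with the 1674 higher genes in red, the 1368 lower genes in blue and genes not called in grey. Capn11 (log2FC 5.52) and Gdf3 (log2FC -6.48) lie far above and far below 0, and circles mark these and 7 other genes.

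Capn11, Gdf3 and Tnfsf4 showed some of the widest gaps. Capn11 encodes a calpain, a calcium-dependent protease known mainly from testis. It had 3.58, 3.72 and 3.35 CPM in Jak2VF, against 0.0418, 0.145 and 0.0279 CPM in Dnmt3aKO. The Dnmt3aKO values rest on 1, 5 and 1 counts, and the WT libraries with LDL had 0.139, 0.0276 and 0 CPM. All 3 Jak2VF libraries were thus above every Dnmt3aKO and WT library and lay close together (log2FC 5.52 ± 0.47, adjusted p = 3.8e-08). The 300 bases around the RefSeq start of Capn11 (chr17:45659260-45659559, minus strand, GRCm38.p6) hold 3 CG pairs, the target of Dnmt3a, in capitals here and in the other promoters printed. Over 32851 RefSeq promoters of the same length the median was 7 CG pairs, and 94.6% held at least 1.
Capn11: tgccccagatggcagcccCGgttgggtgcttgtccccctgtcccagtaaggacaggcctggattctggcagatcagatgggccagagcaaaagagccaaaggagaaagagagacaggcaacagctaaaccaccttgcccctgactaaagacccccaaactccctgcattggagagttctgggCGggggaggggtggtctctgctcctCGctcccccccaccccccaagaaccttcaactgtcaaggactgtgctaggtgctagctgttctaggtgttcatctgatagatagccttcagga

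Gdf3, a secreted ligand of the TGF-beta family that signals through activin-type receptors, had 0.0819, 0.189 and 0.275 CPM in Jak2VF, against 16.2, 17.9 and 15.6 CPM in Dnmt3aKO. WT with LDL lay between the genotypes at 0.947, 0.909 and 0.721 CPM. The log2FC of Jak2VF over Dnmt3aKO was -6.48 ± 0.21 (adjusted p = 1.8e-14), an 89.4-fold higher fitted level in Dnmt3aKO. Tnfsf4 encodes OX40 ligand, which costimulates T cells. It had 0.546, 0.495 and 0.522 CPM in Jak2VF, against 6.06, 7.89 and 8.66 CPM in Dnmt3aKO, and 0.64, 0.441 and 0.721 CPM in WT. Here Jak2VF overlapped WT, and Dnmt3aKO was higher than both (log2FC of Jak2VF over Dnmt3aKO -3.85 ± 0.21, adjusted p = 4.9e-11).

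The other large rises were genes of varied roles. Il33, an alarmin cytokine released from damaged cells, had 6.99, 7.43 and 7.78 CPM in Jak2VF, against 1.05, 0.698 and 0.838 CPM in Dnmt3aKO (log2FC 3.12 ± 0.17, adjusted p = 5.2e-11). The WT libraries had 2.84, 3.72 and 3.08 CPM, so the genotypes did not overlap and WT lay between them. Fgf10, a fibroblast growth factor made by mesenchymal cells, had 18.9, 15 and 16.9 CPM in Jak2VF, against 2.84, 2.62 and 2.65 CPM in Dnmt3aKO (log2FC 2.65 ± 0.15). Its WT libraries, at 13.1, 18.3 and 13.3 CPM, overlapped Jak2VF. Vnn1, a pantetheinase, averaged 18.7 ± 2.46 CPM in Jak2VF and 2.39 ± 0.212 CPM in Dnmt3aKO (log2FC 2.96 ± 0.14). Eps8l1, a relative of the actin regulator Eps8, had a log2FC of 3.10 ± 0.16, and Gjb2, the gap junction protein connexin 26, one of 2.89 ± 0.17. Cd207 (langerin, a lectin of Langerhans cells) had a log2FC of 2.96, Aqp5 (a water channel) 2.92, Slc4a10 (a bicarbonate transporter) 2.90, Ptn (the growth factor pleiotrophin) 2.65, Perp (a p53 target of cell junctions) 2.58 and Sprr1a (a cornified envelope protein) 2.52. Sprr1a was no longer called without Dnmt3aKO library 2 (adjusted p = 0.0627) or 3 (adjusted p = 0.0612). Gzmd, a granzyme, averaged 12.6 ± 0.935 CPM in Jak2VF and 1.20 ± 0.479 CPM in Dnmt3aKO (log2FC 3.43), but granzyme genes are near copies of each other and their counts are uncertain.

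Among the large falls, Krt7, an epithelial keratin, had 0.41, 0.354 and 0.385 CPM in Jak2VF, against 6.1, 5.62 and 5.67 CPM in Dnmt3aKO (log2FC -3.91 ± 0.25, adjusted p = 5e-10). Mcoln3, a cation channel of endosomes, had 2.1, 1.74 and 1.32 CPM in Jak2VF, against 14.3, 16.1 and 14.3 CPM in Dnmt3aKO (log2FC -3.11 ± 0.22). For both genes WT was nearer to Jak2VF than to Dnmt3aKO: 1.31, 0.744 and 1.02 CPM for Krt7 and 1.36, 2.51 and 2.13 CPM for Mcoln3. C2, a complement protease, averaged 0.342 ± 0.071 CPM in Jak2VF and 3.38 ± 0.431 CPM in Dnmt3aKO (log2FC -3.28). Apoc1, an apolipoprotein, had a log2FC of -3.66 ± 0.38, and Calca, the gene of calcitonin and CGRP, one of -4.34 ± 0.35. Adipoq, the fat cell hormone adiponectin, varied widely in Dnmt3aKO: 0.0546, 0.0236 and 0.0824 CPM in Jak2VF, against 1.8, 2.97 and 0.14 CPM in Dnmt3aKO.

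The promoters of 3 further genes with wide gaps are given as examples of CG content. Il33, higher in Jak2VF (chr19:29924863-29925162, plus strand), holds 6 CG pairs. Of the lower genes, Krt7 (chr15:101412153-101412452, plus strand) holds 21 and Mcoln3 (chr3:146121541-146121840, plus strand) 12, all on GRCm38.p6 from RefSeq.
Il33: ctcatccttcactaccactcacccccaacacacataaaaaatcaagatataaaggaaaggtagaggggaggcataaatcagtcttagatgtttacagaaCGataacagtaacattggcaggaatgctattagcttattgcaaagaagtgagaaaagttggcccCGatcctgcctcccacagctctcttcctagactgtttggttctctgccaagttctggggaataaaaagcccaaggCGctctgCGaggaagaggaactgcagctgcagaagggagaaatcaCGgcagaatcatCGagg
Krt7: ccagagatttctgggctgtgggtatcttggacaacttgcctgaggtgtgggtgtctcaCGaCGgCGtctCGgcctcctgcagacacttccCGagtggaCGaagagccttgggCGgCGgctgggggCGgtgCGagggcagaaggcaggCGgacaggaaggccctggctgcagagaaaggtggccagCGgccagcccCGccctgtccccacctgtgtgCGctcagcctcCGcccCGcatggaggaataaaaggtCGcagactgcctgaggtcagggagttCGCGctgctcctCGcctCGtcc
Mcoln3: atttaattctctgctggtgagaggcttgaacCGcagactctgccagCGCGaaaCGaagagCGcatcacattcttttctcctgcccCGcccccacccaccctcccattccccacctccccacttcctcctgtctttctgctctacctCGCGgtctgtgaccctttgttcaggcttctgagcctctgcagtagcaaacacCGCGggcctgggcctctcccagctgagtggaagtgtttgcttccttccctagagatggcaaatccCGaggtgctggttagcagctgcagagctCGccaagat

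RefSeq promoters were found for 16 of the 28 genes with the largest rises and falls. Among the 11 of higher genes, CG pairs ranged from 0 in Sprr1a to 46 in Aqp5, and among the 5 of lower genes from 0 in Adipoq to 21 in Krt7, so that the ranges overlapped. The STAT5 motif TTCNNNGAA, which reads the same on both strands, was in 0 of these 16 windows and in 8.3% of all 32851 promoters. These are counts of letters only, since no methylation or binding was measured.

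Immunoglobulin and B cell genes formed a further group. Mzb1 and Pou2af1, of plasma cells and B cells, had log2FCs of -3.68 ± 0.31 and -3.90 ± 0.27. Pou2af1 averaged 0.189 ± 0.0451 CPM in Jak2VF and 2.88 ± 0.597 CPM in Dnmt3aKO. Of 11 B cell markers tested 0 were higher and 8 lower in Jak2VF, with a median log2FC of -1.76, against 0.00 over all genes. Ighm, the heavy chain of IgM, averaged 10.5 ± 1.29 CPM in Jak2VF and 52.6 ± 6.27 CPM in Dnmt3aKO. Of the variable gene segments, Igkv14-126, Ighv11-2, Igkv12-46 and Igkv1-117 were lower in Jak2VF and Ighv1-42 was higher, with 1.07, 3.32 and 1.26 CPM in Jak2VF, against 0, 0 and 0.0279 CPM in Dnmt3aKO. These segments are near copies of each other, so their counts are uncertain. The 15 B cell markers in the table summed to 78.6 to 81.1 CPM in Jak2VF, against 138 to 162 CPM in Dnmt3aKO, and 99.5 to 119 CPM in WT. In such bulk libraries fewer cells of a type and less RNA per cell cannot be told apart.

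**Figure D2:**
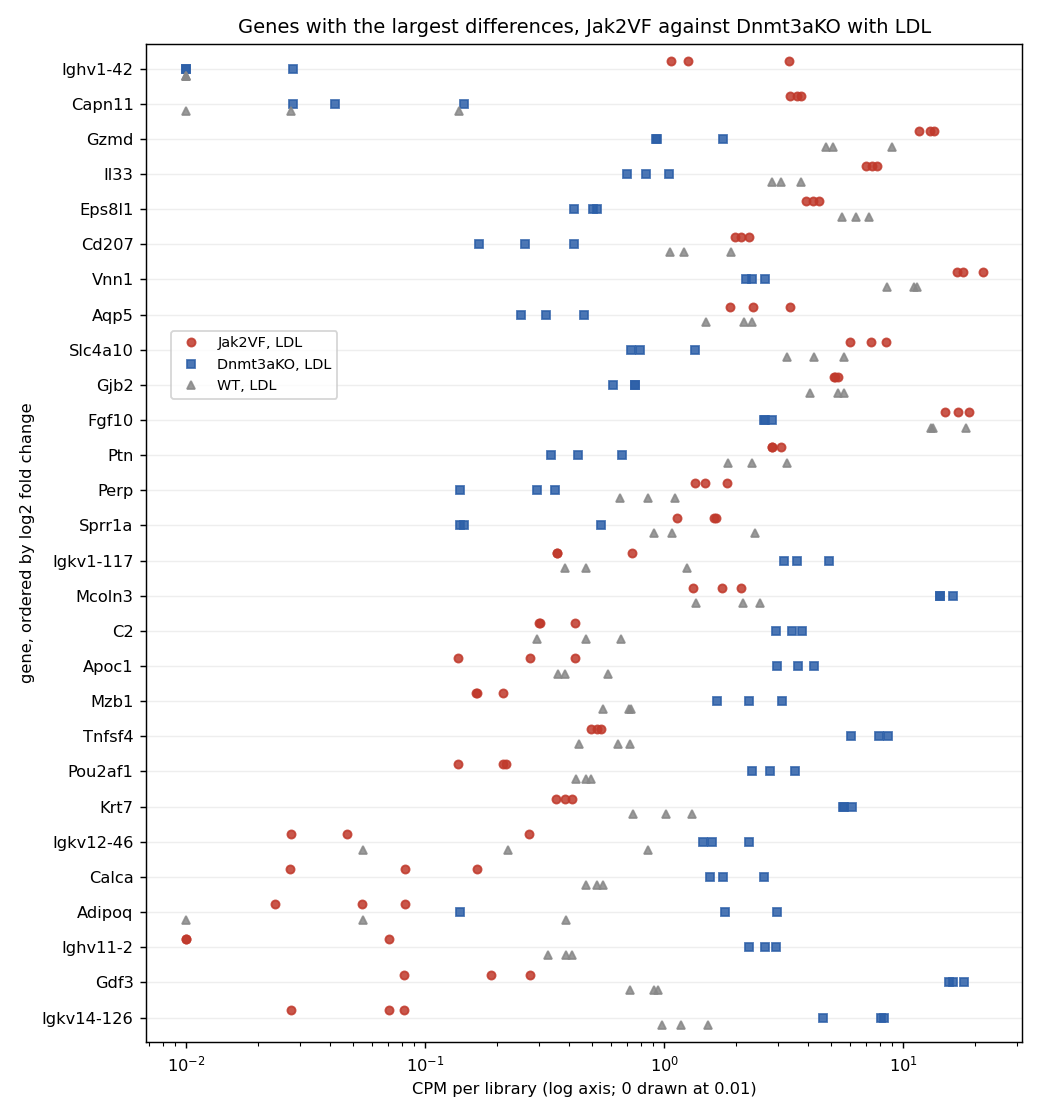
Rows are the 14 genes with the largest rises and the 14 with the largest falls, ordered by log2 fold change. Points give the CPM of each LDL library on a log axis, for Jak2VF in red, Dnmt3aKO in blue and WT in grey, with 0 drawn at 0.01. The Jak2VF and Dnmt3aKO points do not overlap for any of these 28 genes, which was a condition of their choice. The WT points overlap Jak2VF for Tnfsf4 and Fgf10, lie between for Gdf3 and Il33, lie with Dnmt3aKO near 0 for Capn11 and Ighv1-42, and lie above every Jak2VF library for Eps8l1.

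Some abundant genes, chosen after their values were seen, also had wide gaps. Slc40a1 encodes ferroportin, which exports iron. It had 15.6, 14.9 and 12.9 CPM in Jak2VF, against 84.6, 115 and 112 CPM in Dnmt3aKO (log2FC -2.85 ± 0.15, adjusted p = 2.6e-11). Slpi, a secreted inhibitor of neutrophil proteases, had 36.4, 43.9 and 34.5 CPM in Jak2VF, against 238, 274 and 283 CPM in Dnmt3aKO (log2FC -2.79 ± 0.20, adjusted p = 3.9e-09). Ednrb, an endothelin receptor, had a log2FC of -2.73 ± 0.09, with 20.4 to 22.7 CPM in Jak2VF and 124 to 153 CPM in Dnmt3aKO. Each of these genes was several-fold lower in every Jak2VF library than in any Dnmt3aKO library.

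Genes of cell division were higher in Jak2VF. Of 32 cell cycle genes tested, 26 (81.2%) were higher and 0 lower, with a median log2FC of 0.68. For this list and every list below, the shares of all genes tested were 8.61% higher and 7.04% lower. Ccnb1, the cyclin of entry into mitosis, had 72.2, 70.9 and 76.8 CPM in Jak2VF, against 40.2, 30.5 and 28.9 CPM in Dnmt3aKO (log2FC 1.15 ± 0.12, adjusted p = 3.6e-07). The mitotic kinases Plk1 and Aurka had log2FCs of 1.09 ± 0.13 and 0.98 ± 0.11, the cyclin-dependent kinase Cdk1 0.80 ± 0.09, and the kinesin Kif20a 1.29 ± 0.18. Genes of DNA replication were also higher but by less, with log2FCs of 0.49 to 0.79 for Mcm2 to Mcm7, the subunits of the replicative helicase. The 6 members not called, Cenpe, Mki67, Cenpf, Pcna, Cdt1 and E2f1, had log2FCs of 0.03 to 0.69. Against WT with LDL, where 9.97% of all genes were called for Jak2VF and 17.5% for Dnmt3aKO, 9 of the 32 were higher and 0 lower in Jak2VF (median 0.23), and 0 higher and 20 lower in Dnmt3aKO (median -0.42). Both comparisons with WT share the same WT libraries.

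Inflammatory genes were lower in Jak2VF. Of 29 inflammatory cytokine and NF-kB target genes tested, 2 were higher and 17 lower, with a median log2FC of -0.55. Il1a, the gene of interleukin 1 alpha, had 2.38, 1.91 and 2.56 CPM in Jak2VF, against 9.32, 9.02 and 11.3 CPM in Dnmt3aKO (log2FC -2.12 ± 0.20, adjusted p = 1.2e-07), and 1.84, 1.87 and 2.03 CPM in WT. The lowest Dnmt3aKO library was thus above the highest library of both other genotypes. Il1b, its better known relative, averaged 254 ± 47.8 CPM in Jak2VF and 709 ± 91.0 CPM in Dnmt3aKO (log2FC -1.48 ± 0.28), and Csf3, the gene of G-CSF, 1.46 ± 0.297 CPM in Jak2VF and 7.78 ± 0.425 CPM in Dnmt3aKO (log2FC -2.41 ± 0.24). Ptges, a synthase of prostaglandin E, had a log2FC of -1.29 ± 0.10, Irak3, a brake on Toll-like receptor signals, -1.37 ± 0.10, and Sod2, the mitochondrial superoxide dismutase, -1.35 ± 0.13. Nfkbia and Tnfaip3, which restrain NF-kB, were lower too (-0.86 ± 0.10 and -0.65 ± 0.12). The 2 higher members were Ptx3, a soluble pattern receptor (0.58 ± 0.11), and Il1rn, the antagonist of the interleukin 1 receptor (0.31 ± 0.09). Tnf (-0.19 ± 0.17) and Il6 (-0.19 ± 0.18) were not called. Against WT, 5 members were higher and 2 lower in Jak2VF (median 0.04), and 19 higher and 1 lower in Dnmt3aKO (median 0.60). Of all genes, 4.21% were higher and 5.75% lower in Jak2VF than in WT, and 8.01% and 9.46% in Dnmt3aKO.

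Receptors that guide cell movement were mostly lower. Of 17 chemokine and chemoattractant receptors, 1 was higher and 12 lower, with a median log2FC of -0.50. Ccr7, which leads cells to lymph nodes, had 0.328, 0.684 and 0.495 CPM in Jak2VF, against 2.17, 2.15 and 2.21 CPM in Dnmt3aKO (log2FC -2.10 ± 0.28, adjusted p = 1.5e-05). Fpr1, a receptor for bacterial formyl peptides, averaged 27.2 ± 3.5 CPM in Jak2VF and 101 ± 6.76 CPM in Dnmt3aKO (log2FC -1.89 ± 0.22), and Ccr2, the receptor that draws monocytes out of marrow, 64.6 ± 9.46 CPM in Jak2VF and 152 ± 25 CPM in Dnmt3aKO (log2FC -1.24 ± 0.17). Of 21 chemokines 1 was higher and 8 lower, and 5 were lower without Dnmt3aKO library 2 or without library 3. Ccl22, a ligand of Ccr4, had a log2FC of -1.89 ± 0.24 and the neutrophil attractant Cxcl3 one of -1.17 ± 0.18. Ppbp, a chemokine of platelets, was higher at 176, 169 and 158 CPM in Jak2VF, against 54.6, 55.6 and 61.6 CPM in Dnmt3aKO (log2FC 1.55 ± 0.13). Inflammasomes process interleukin 1 beta, and of 20 genes in their list 0 were higher and 10 lower. The 10 include Il1a, which is counted among the inflammatory genes too. Log2FCs were -0.97 ± 0.10 for Mefv (pyrin), -0.82 ± 0.15 for Nlrc4 and -0.50 ± 0.11 for Nlrp3. Of 22 Toll-like receptors and adaptors, 1 was higher and 8 lower, Tlr2 among the lower (-0.64 ± 0.10).

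Genes of the antioxidant response driven by the transcription factor NRF2 fell in Jak2VF in 15 of 20 cases, with 1 higher and a median log2FC of -0.79. Hmox1, which breaks down haem, had 675, 750 and 605 CPM in Jak2VF, against 1860, 2230 and 2240 CPM in Dnmt3aKO (log2FC -1.64 ± 0.13, adjusted p = 1.5e-08). The WT libraries had 1180, 867 and 1060 CPM and lay between the genotypes. Gclm and Gclc, the subunits of the enzyme that starts glutathione synthesis, had log2FCs of -1.33 ± 0.09 and -0.87 ± 0.13, and Slc7a11, the cystine importer that supplies it, -1.45 ± 0.19. Catalase (Cat) averaged 196 ± 7.69 CPM in Jak2VF and 410 ± 13.8 CPM in Dnmt3aKO (log2FC -1.07 ± 0.06). Me1, malic enzyme, was the higher member (0.35 ± 0.09), and Nqo1, a quinone reductase, was not called (-0.11 ± 0.11). Against WT, 1 member was higher and 3 lower in Jak2VF, and 15 higher and 0 lower in Dnmt3aKO. Of all genes, 9.97% were called against WT in Jak2VF and 17.5% in Dnmt3aKO.

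Genes that take up, store and break down lipid were lower in Jak2VF in 15 of 27 cases, with 0 higher and a median log2FC of -0.48. Cd36, a scavenger receptor for oxidised LDL and fatty acids, had 440, 393 and 421 CPM in Jak2VF, against 1390, 1440 and 1510 CPM in Dnmt3aKO (log2FC -1.79 ± 0.10, adjusted p = 4.1e-11). WT, at 430, 541 and 518 CPM, overlapped Jak2VF. Lpl, lipoprotein lipase, had 73.8, 85.8 and 90.2 CPM in Jak2VF, against 208, 249 and 238 CPM in Dnmt3aKO (log2FC -1.48 ± 0.17). The scavenger receptors Marco and Msr1 had log2FCs of -2.44 ± 0.37 and -0.74 ± 0.12, the fatty acid carrier Fabp4 -1.16 ± 0.13, its regulator Pparg -1.03 ± 0.14, and the lysosomal lipase Lipa -0.75 ± 0.09. Of 13 LXR target and cholesterol efflux genes, 1 was higher (Scd1, 0.68 ± 0.13) and 4 lower, among them the cholesterol exporter Abca1 (-0.54 ± 0.18, adjusted p = 0.0499), and 2 were lower without Dnmt3aKO library 2, without Jak2VF library 3 or with library totals. Of 25 cholesterol synthesis genes, 2 (8.0%) were higher and 2 (8.0%) lower, shares near those of all genes. The lower count was 0 with library totals and 0 to 1 with a library left out, and the higher count 1 without Dnmt3aKO library 3. Among the higher was Cyp51, a demethylase of sterol synthesis (0.33 ± 0.08). Cyp51 was not called without Dnmt3aKO library 3 (adjusted p = 0.0615) or without the filter on low counts (adjusted p = 0.0551). Hypoxia and glycolysis genes were lower in 12 of 24 cases and higher in 0. Car9, a carbonic anhydrase induced by low oxygen, had 9.23, 10.0 and 7.67 CPM in Jak2VF, against 45.5, 60.1 and 60.4 CPM in Dnmt3aKO (log2FC -2.63 ± 0.16).

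**Figure D3:**
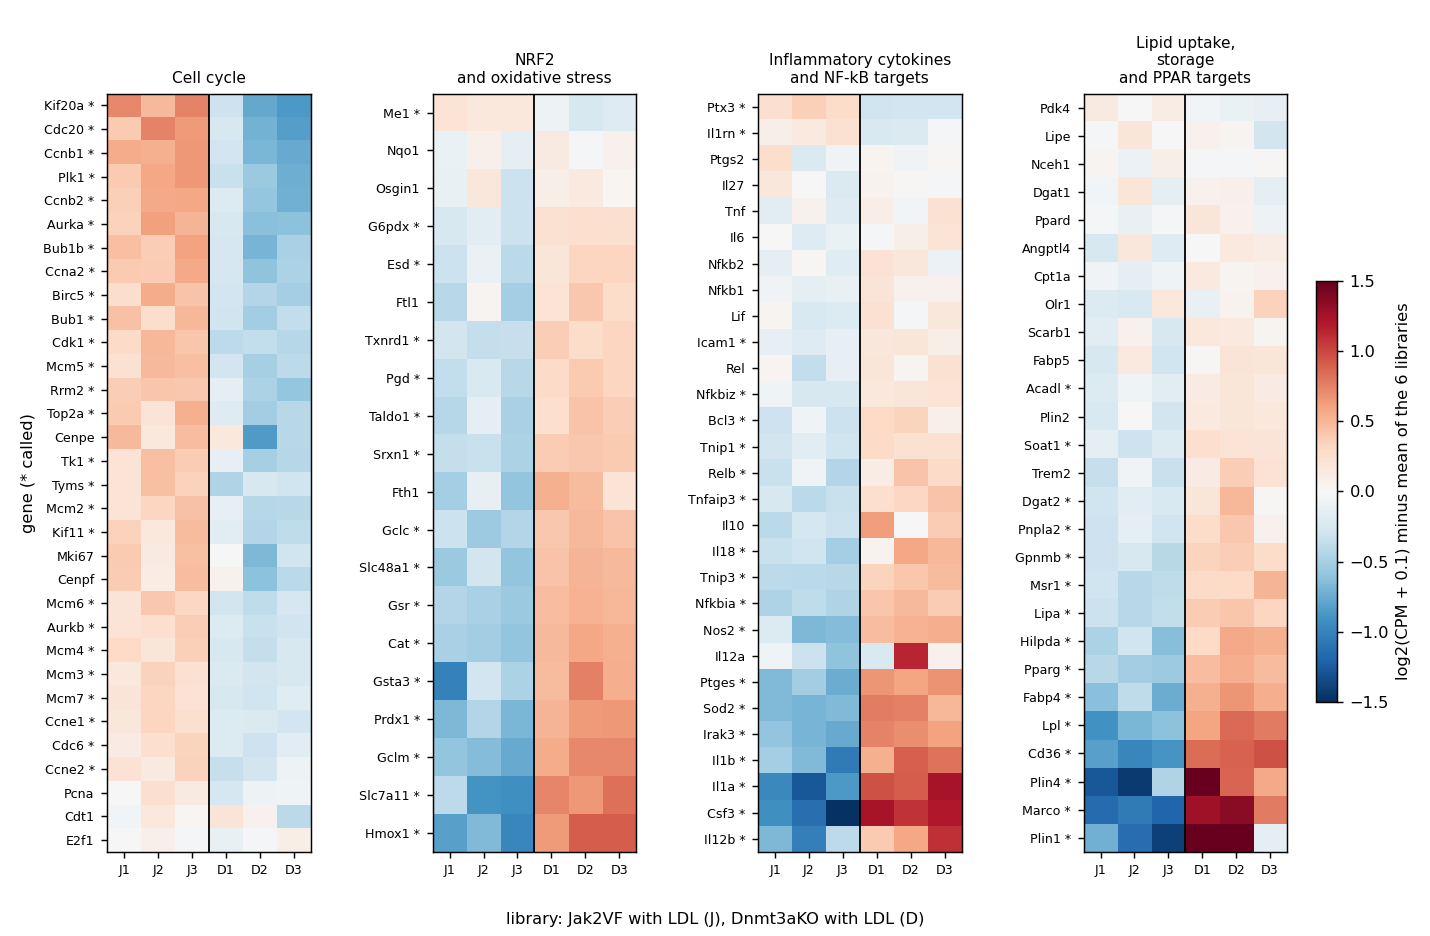
Rows are the genes tested in 4 lists and columns the libraries, 3 Jak2VF (J) left of 3 Dnmt3aKO (D), all with LDL. Colour gives log2(CPM + 0.1) minus the mean of the 6 libraries, with the scale ending at 1.5 in either direction, and an asterisk marks a gene called: 26 of 32 cell cycle genes, 16 of 20 NRF2 genes, 19 of 29 inflammatory genes and 15 of 27 lipid genes.

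Of 11 kinases of the JAK family and STAT factors 0 were higher and 3 (27.3%) lower, against 7.04% of all genes lower: Jak2, Tyk2 (-0.34 ± 0.08) and Stat3 (-0.34 ± 0.09). Tyk2 and Stat3 were not called with library totals as the scale (adjusted p = 0.0709 and 0.124) or without the filter on low counts (adjusted p = 0.112 and 0.0845), which left 1 lower. Of 20 cytokine receptors that signal through JAK kinases, 1 was higher and 11 lower, with a median log2FC of -0.42. Csf3r, the receptor of G-CSF, had 13.5, 15.2 and 14.4 CPM in Jak2VF, against 30.6, 33.7 and 29.1 CPM in Dnmt3aKO (log2FC -1.12 ± 0.11, adjusted p = 1.4e-07). Epor, the erythropoietin receptor, averaged 0.724 ± 0.127 CPM in Jak2VF and 1.52 ± 0.481 CPM in Dnmt3aKO (log2FC -1.06 ± 0.23), and Il6st, the shared chain gp130, was the higher member (0.61 ± 0.21), with 0 higher under RLE scaling or when any library but Jak2VF library 2 was left out. Of 17 STAT5 and feedback targets 3 were higher and 6 lower, with a median of 0.04, and 1 was higher without Dnmt3aKO library 2 or without library 3. Cish and Socs1, feedback inhibitors of JAK kinases, had log2FCs of -0.12 ± 0.23 and 0.04 ± 0.30 and were not called. Socs2 was higher (0.36 ± 0.09), and Socs3 (-0.48 ± 0.10), the cytokine Osm (-0.60 ± 0.10) and the interleukin 2 receptor chain Il2ra (-1.51 ± 0.21) were lower. Socs2 was not called without the filter on low counts (adjusted p = 0.0632) or without Dnmt3aKO library 1 (adjusted p = 0.0503). Against WT with LDL, 1 of these 17 genes was higher and 0 lower in Jak2VF, and 5 were higher and 5 lower in Dnmt3aKO. The shares of all genes called against WT were 9.97% in Jak2VF and 17.5% in Dnmt3aKO.

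Of 30 TNF superfamily genes tested, 8 (26.7%) were lower, Tnfsf4 among them, and 5 (16.7%) higher, against 7.04% and 8.61% of all genes. The higher count was 3 without Dnmt3aKO library 2, without Dnmt3aKO library 3 or without Jak2VF library 3. Tnfrsf9 (4-1BB), a costimulatory receptor, had 13.1, 12.5 and 10.6 CPM in Jak2VF, against 41.8, 59.9 and 65.6 CPM in Dnmt3aKO (log2FC -2.21 ± 0.18, adjusted p = 1.8e-08). The death receptor Fas (-1.20 ± 0.13) and the receptor Cd40 (-1.20 ± 0.23) were lower, and the ligands Tnfsf15 (1.25 ± 0.32) and Tnfsf8 (1.23 ± 0.31) higher. Of 26 TGF-beta family genes, 6 were higher and 4 lower, and 2 were lower when Dnmt3aKO library 1 or 2, or Jak2VF library 1 or 2, was left out. Bmp4, a bone morphogenetic protein, had 6.01, 8.53 and 6.95 CPM in Jak2VF, against 1.17, 1.51 and 1.17 CPM in Dnmt3aKO (log2FC 2.47 ± 0.20), the reverse of the ligand Gdf3. Inhbb, an activin subunit, was higher too (0.99 ± 0.12), and the stress ligand Gdf15 lower (-1.27 ± 0.35). Of 13 calpain genes 2 were higher, Capn11 and Capn6 (0.87 ± 0.29, adjusted p = 0.0453), and 1 with RLE scaling or with any of the 6 libraries left out.

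Genes tied to DNA methylation were called in both directions. Of 19 genes of the methylation machinery, 4 were higher and 3 lower, and 1 was lower without Dnmt3aKO library 2, without Dnmt3aKO library 3 or without Jak2VF library 3. Beside Dnmt3a, Uhrf1, which guides maintenance methylation, was higher (0.70 ± 0.13) and Dnmt3l, a cofactor of Dnmt3a, lower (-1.10 ± 0.22). Of 27 imprinted genes, which are methylated on one parental copy, 6 were higher and 1 lower. The imprinted RNA H19 had 46.6, 61.1 and 54.1 CPM in Jak2VF, against 10.7, 17.7 and 17.2 CPM in Dnmt3aKO (log2FC 1.82 ± 0.18, adjusted p = 2e-07), and 76.5, 66.5 and 80.3 CPM in WT. Dnmt3aKO was thus the low genotype. Igf2, the growth factor gene next to H19, had a log2FC of 1.17 ± 0.17 and the imprinted RNA Meg3 1.69 ± 0.26. Markers of stromal cells moved with these genes: 11 of 23 were higher and 1 lower, they summed to 17800 to 19000 CPM in Jak2VF, against 12500 to 13900 CPM in Dnmt3aKO, and 15200 to 17600 CPM in WT, and 0 of them were at 0 in all 6 libraries. Col1a1, the main chain of collagen I, averaged 3910 ± 252 CPM in Jak2VF and 2610 ± 281 CPM in Dnmt3aKO (log2FC 0.58 ± 0.14). The part of stromal cells in the higher H19, Igf2, Bmp4, Fgf10 and Ptn, and in the higher cell cycle genes, was not tested. Of 13 germline genes 1 (7.69%) was higher, a share near the 8.61% of all genes. Lower were 3 (23.1%), against 7.04% of all genes, Dppa3 among them (-2.21 ± 0.28).

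Interferon response genes gave no stable count. Of 31 type I interferon response genes 0 were higher and 4 lower (median -0.56), but leaving out a library gave 0 lower (without Jak2VF library 2) to 8 lower (without Jak2VF library 1). Against WT, 20 of the 31 were lower in Jak2VF and 3 in Dnmt3aKO. Of all genes, 5.75% were lower in Jak2VF and 9.46% in Dnmt3aKO than in WT. These counts depend on WT libraries that differed among themselves. WT library 1 had 26.2 CPM of Rsad2, against 10.9 and 10.9 CPM in the other WT libraries. For Dhx58 it had 49.1 CPM, against 23.6 and 23.2 CPM, and it was likewise highest for Cmpk2 and Cxcl10. The counts without WT library 1 were not tested. Of 23 MHC class II and antigen presentation genes 3 were higher and 4 lower, and each left-out library took the higher or the lower count to 1. Among matrix metalloproteinases and their inhibitors 3 of 24 were higher (1 without Dnmt3aKO library 2) and 9 lower, with the collagenases Mmp8 (-1.51 ± 0.12) and Mmp13 (-1.20 ± 0.18) and the elastase Mmp12 (-1.03 ± 0.13) lower. Of 20 plasminogen and coagulation genes 4 were higher, among them tissue plasminogen activator Plat (1.22 ± 0.10), and 5 lower, among them the inhibitor Serpinb2 (-1.89 ± 0.16) and coagulation factor F10 (-1.57 ± 0.20).

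Markers of other blood cells also differed. Of 16 monocyte markers 2 were higher and 9 lower, and they summed to 3860 to 4390 CPM in Jak2VF, against 6830 to 7320 CPM in Dnmt3aKO, and 2860 to 4190 CPM in WT. Of 27 neutrophil and granule markers 1 was higher and 10 lower, with sums of 581 to 637 CPM in Jak2VF, against 1080 to 1150 CPM in Dnmt3aKO, and 414 to 497 CPM in WT. Of 20 macrophage identity genes 0 were higher and 9 lower (5 without Jak2VF library 3), with sums of 28200 to 33800 CPM in Jak2VF, against 40200 to 43500 CPM in Dnmt3aKO, and 35200 to 49100 CPM in WT, which overlapped Dnmt3aKO. Cybb, a subunit of the phagocyte oxidase, fell furthest (-1.70 ± 0.13). None of the markers in these 3 lists was at 0 in all 6 libraries. Of 13 mast cell and basophil markers 5 were higher and 1 lower. Mcpt8, a basophil protease, was at 10.9 ± 1.47 CPM in Jak2VF and 3.79 ± 0.947 CPM in Dnmt3aKO (log2FC 1.54 ± 0.29). The summed level of that list was nevertheless lower, 337 to 382 CPM in Jak2VF and 458 to 523 CPM in Dnmt3aKO. Megakaryocyte and platelet markers, Ppbp among them, were higher for 5 of 21 and lower for 2, with sums of 1160 to 1360 CPM in Jak2VF, against 893 to 937 CPM in Dnmt3aKO, and 1550 to 2240 CPM in WT. The part of these cells in the results on inflammatory, chemokine, receptor and lipid genes was not tested.

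**Figure D4:**
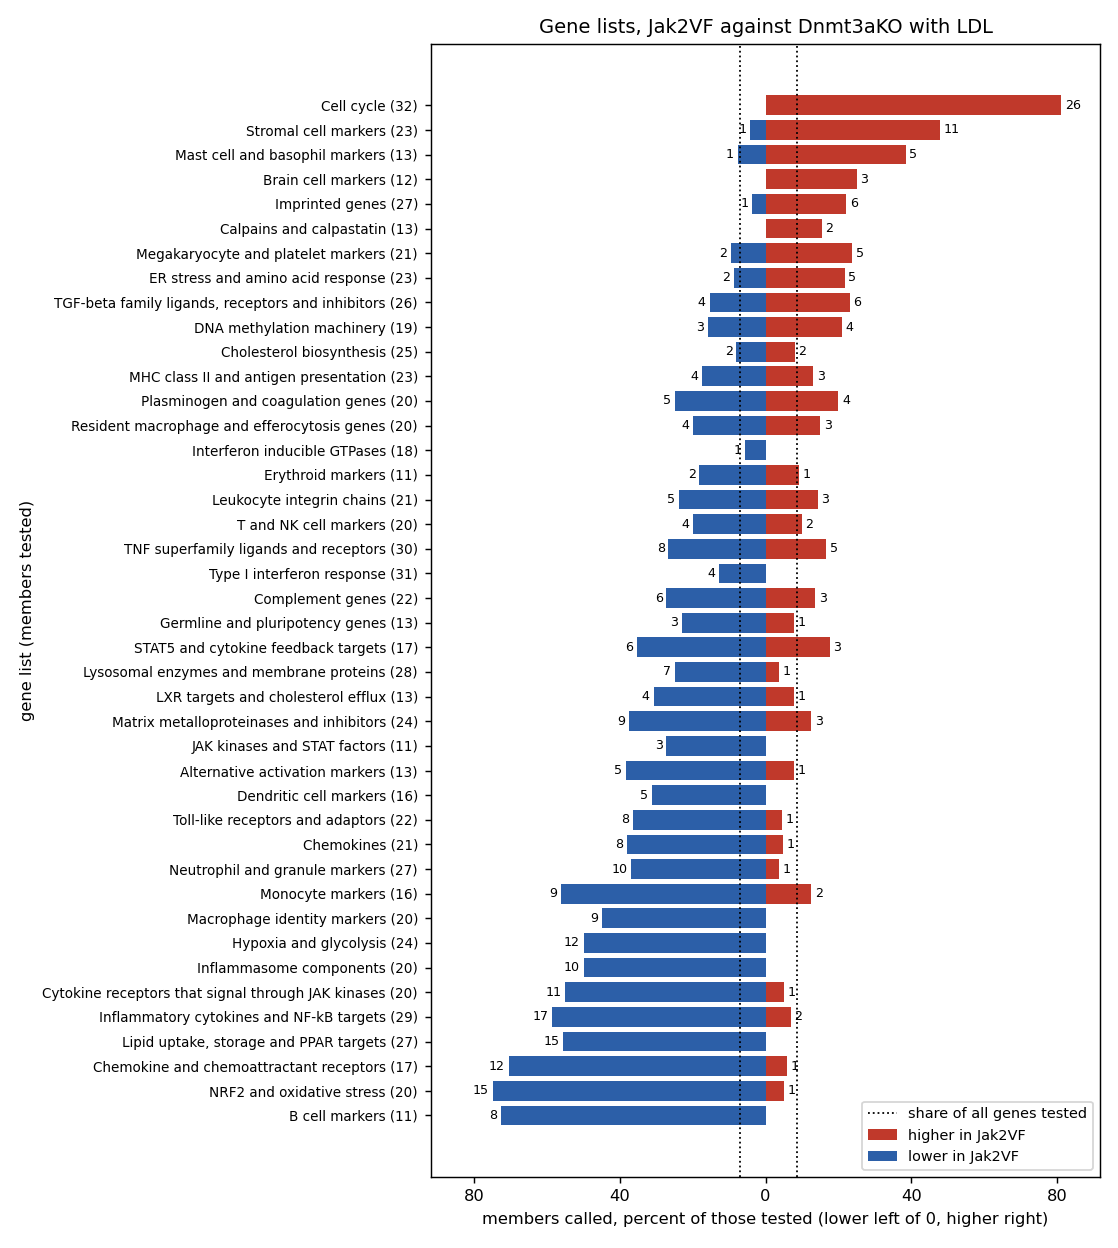
Bars give the share of tested members (number in parentheses) of each gene list called higher (red, right) or lower (blue, left) in Jak2VF than in Dnmt3aKO with LDL, with the counts at the bar ends. Dotted lines mark the share of all genes tested, 8.61% higher and 7.04% lower. Cell cycle genes (26 of 32) stand at the top and B cell markers (8 of 11) and NRF2 genes (15 of 20) at the bottom.

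The same genotypes were compared with vehicle, in libraries that the LDL comparison does not share. There 3729 genes (19.2%) were called, 1787 higher (9.19%) and 1942 lower (9.99%) in Jak2VF. In both comparisons 2061 genes were called in the same direction, 67.8% of the LDL calls and 55.3% of the vehicle calls, and 2 in opposite directions. Capn11 and Gdf3 were apart without LDL too. With vehicle Capn11 had 4.13, 4.93 and 4.26 CPM in Jak2VF, against 0.0484, 0.0255 and 0 CPM in Dnmt3aKO, and Gdf3 had a log2FC of -6.02. Cell cycle genes were higher in 19 of 32 cases with vehicle (median 0.46) and NRF2 genes lower in 13 of 20 (median -0.48). Cholesterol synthesis genes were higher in 12 of 25 cases and lower in 0 with vehicle, and the test of the change with LDL called 0 of them. For inflammatory genes the counts with vehicle were 4 higher and 10 lower (median -0.25).

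The test of whether the difference between genotypes itself changed with LDL called 17 genes (0.0874%), 4 upward (0.0206%) and 13 downward (0.0669%), with 1244 genes (6.4%) at an unadjusted p under 0.05. Abcg1, the exporter that passes cholesterol to HDL, had 172, 160 and 163 CPM in Jak2VF with LDL, against 177, 168 and 172 CPM in Dnmt3aKO with LDL. With vehicle it had 16.8, 15.6 and 17.9 CPM in Jak2VF, against 37.8, 36.6 and 33.8 CPM in Dnmt3aKO. The genotypes thus overlapped with LDL and did not with vehicle (change of the log2FC 1.04 ± 0.14, adjusted p = 0.00252, edgeR). Esam, an adhesion protein of endothelium and platelets, had 2.73, 3.39 and 2.89 CPM in Jak2VF with LDL, against 16.1, 14.1 and 16.2 CPM in Dnmt3aKO with LDL. With vehicle the Esam values were 2.87, 2.6 and 2.58 CPM in Jak2VF, against 3.83, 2.45 and 2.47 CPM in Dnmt3aKO, so that Dnmt3aKO with LDL alone stood apart (change -2.24 ± 0.28, adjusted p = 9.7e-04). The neutrophil attractants Cxcl1 and Cxcl3 changed by -1.28 ± 0.23 and -1.35 ± 0.25: Cxcl3 had 246, 219 and 203 CPM in Jak2VF with LDL, against 490, 507 and 505 CPM in Dnmt3aKO with LDL, while the vehicle libraries of the genotypes overlapped. For this test the calls of Abcg1 and Esam held under all alternatives tried, and those of the other 8 genes named by size for it did not. The smallest adjusted p was that of Ptges (change -1.19, adjusted p = 4.8e-04), with a log2FC of -1.29 with LDL and -0.10 with vehicle.

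**Figure D5:**
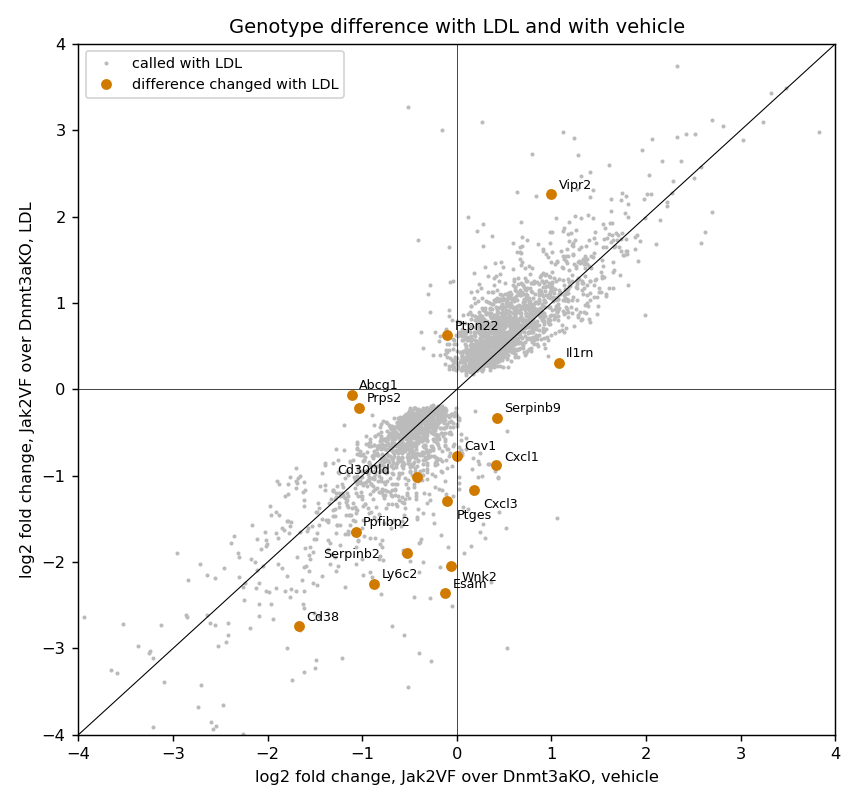
Each grey point is a gene called with LDL, with its log2 fold change of Jak2VF over Dnmt3aKO with vehicle on the horizontal axis and with LDL on the vertical axis. Orange points are the 17 genes whose difference changed with LDL and the diagonal marks equal differences. Axes end at 4 in either direction, which leaves out 49 genes called. Abcg1 lies near 0 with LDL and at -1.11 with vehicle, and Esam at -2.36 with LDL and at -0.12 with vehicle.

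Set beside WT with LDL, the 2 genotypes differed in which of them departed from it. Jak2VF had 819 genes higher (4.21%) and 1119 lower (5.75%) than WT, and Dnmt3aKO 1557 higher (8.01%) and 1840 lower (9.46%). Tnfsf4 was not called in Jak2VF against WT (log2FC -0.20, adjusted p = 0.635) and was higher in Dnmt3aKO (3.66). Fgf10 (0.19 in Jak2VF, -2.46 in Dnmt3aKO), Gjb2 (0.06 in Jak2VF, -2.83 in Dnmt3aKO), Mcoln3 (-0.21 in Jak2VF, 2.90 in Dnmt3aKO) and Cd36 (-0.25 in Jak2VF, 1.55 in Dnmt3aKO) were likewise called in Dnmt3aKO and not in Jak2VF. Capn11 was called in Jak2VF (5.85) and not in Dnmt3aKO (0.33). Il33 (1.20 in Jak2VF, -1.92 in Dnmt3aKO), Gdf3 (-2.23 in Jak2VF, 4.26 in Dnmt3aKO) and Hmox1 (-0.62 in Jak2VF, 1.02 in Dnmt3aKO) were called in both, in opposite directions.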

How the data were processed

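Each library's counts per gene were deposited by the authors as a table of whole numbers for 52550 genes. The genome build was mm10, per the submitters' processing notes. The sources used here do not name an aligner, a counting tool or the use of strand, so antisense and overlapping genes cannot be told apart. The deposited table is called normalized, but its totals differ between libraries and it was read as raw counts. All 24 libraries of the main set were fitted together with 1 mean for each of 8 groups (edgeR 4.0.16, R 4.3.3, quasi-likelihood test, TMM scaling, 16 residual degrees of freedom). A gene was kept if 3 or more libraries held 10 or more counts, and two-sided p-values were adjusted by Benjamini-Hochberg over 19444 genes. The biological coefficient of variation was 0.137. Each SE of a log2FC was the absolute log2FC divided by the square root of the F value of its test. This is an approximation that fails near a log2FC of 0. The method was tested on simulated data. Named genes were Jak2, Dnmt3a, Capn11, Gdf3, Tnfsf4, the 14 largest rises and 14 largest falls without overlap and with at least 50 scaled counts in the higher group, up to 6 of each sign for the change with LDL, and up to 4 members of each of 44 lists by smallest adjusted p. Further list members were named after their values were seen. The members and lists were chosen with earlier results of these data known. Some genes are members of more than 1 list, so the list counts are not independent of each other. Among them are Il1a, Ccr2, F13a1, Csf3r, Mmp8, Mmp9, Ccl22 and Ppbp. Alternatives were RLE scaling, library totals, DESeq2 1.42.0, limma 3.58.1, other filters, replicate blocks, fewer groups and leaving out each Jak2VF or Dnmt3aKO library. The 10 libraries of another batch were not used here. Some list members are not reported here.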

Additional observations from a re-analysis of the deposited data

Results flagged for a closer look

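For 17 genes the difference between Jak2VF and Dnmt3aKO with LDL was not the same as with vehicle, by a test of the change itself (edgeR, values are the log2 fold change with LDL minus that with vehicle). The 4 upward genes and the 6 with the largest downward changes are named, and of the other 7, Ptges had the smallest adjusted p of all 17 (-1.19, adjusted p = 4.8e-04). Among the genes named by size, only the calls of Abcg1 and Esam held under all alternatives tried. The change was upward for Vipr2, a receptor of vasoactive intestinal peptide (1.26 ± 0.24, adjusted p = 0.0399), Abcg1 (1.04 ± 0.14, adjusted p = 0.00252), Prps2, an enzyme of nucleotide synthesis (0.82 ± 0.13, adjusted p = 0.0135), and Ptpn22, a phosphatase of immune signalling (0.72 ± 0.13, adjusted p = 0.0386).

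It was downward for Esam (-2.24 ± 0.28, adjusted p = 9.7e-04), the kinase Wnk2 (-1.99 ± 0.38, adjusted p = 0.0426), the monocyte antigen Ly6c2 (-1.38 ± 0.26, adjusted p = 0.0388), Serpinb2 (-1.35 ± 0.23, adjusted p = 0.0203), Cxcl3 (-1.35 ± 0.25, adjusted p = 0.0388) and Cxcl1 (-1.28 ± 0.23, adjusted p = 0.0289). Prps2 had 34.5, 32.2 and 35.0 CPM in Jak2VF with LDL, against 38.8, 39.4 and 39.5 CPM in Dnmt3aKO with LDL, and 32.8, 35.1 and 38.3 CPM in Jak2VF with vehicle, against 75.3, 68.0 and 73.2 CPM in Dnmt3aKO with vehicle. Its Dnmt3aKO libraries with vehicle thus stood above the other 3 groups. Serpinb2 had 55.8, 47.6 and 43.2 CPM in Jak2VF with LDL, against 158, 182 and 202 CPM in Dnmt3aKO with LDL, and with vehicle 6.25, 5.3 and 4.15 CPM in Jak2VF, against 7.7, 7.68 and 7.41 CPM in Dnmt3aKO. Wnk2 rests on 14 to 54 counts in the LDL libraries.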

How the results depend on the processing

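Of the 3042 genes called with LDL, the count under the alternatives ran from 2568 without a filter to 3720 with only the groups compared, and leaving out 1 library gave 2152 to 2543. With the title number as a replicate block and only the groups compared it was 4631, of which 2879 were among the 3042. Same-numbered residuals by title correlated at 0.0757, 0.59 and 0.0858, and differently numbered ones at -0.504 to 0.296. With 3 libraries per group these values cannot settle whether the title numbers pair the samples. The vehicle count of 3729 was 2409 under that block and 2425 to 4573 with a library left out, lowest without Dnmt3aKO library 1. The 17 genes that changed with LDL became 62 with DESeq2, 49 without a filter, 8 with library totals, 7 with the description number as a replicate block and 3 to 13 with a library left out. The log2FC of Abcg1 with LDL, -0.06 and not called, was 0.02 with library totals (adjusted p = 0.939). Called with LDL were 174 named genes, Abcg1 not among them. Of the named genes, 20 lost the call, or for Abcg1 alone reversed sign, under at least 1 of the alternatives applied to the LDL comparison. Of the 23 alternatives, those that left out a vehicle library were not applied to it. WT library 3 and Tet2KO library 3 with LDL held brain transcripts and were left out together as an alternative chosen after seeing the data. Without them 3221 genes were called. WT library 3 was kept in the comparisons with WT given above. Counts of 1 or 2 list members in a direction could change by 1 or 2 when a library was left out. Depth limits genes of few counts, such as Capn11 in Dnmt3aKO.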

Other observations

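Both targeted genes were examined with their neighbours, as a description. Of 26 genes tested within 1 Mb of Jak2 on chromosome 19, 8 (30.8%) differed between Jak2VF and Dnmt3aKO with LDL, 2 higher and 6 lower, against 15.6% of all genes. Of 30 genes tested within 1 Mb of Dnmt3a on chromosome 12, 1 (3.33%) differed, Rab10. Near Jak2, Cd274, the checkpoint ligand PD-L1, averaged 58.3 CPM in Jak2VF and 141 CPM in Dnmt3aKO (log2FC -1.27, adjusted p = 8e-07, edgeR). Its neighbour Pdcd1lg2, the ligand PD-L2, also had a log2FC of -1.27 (adjusted p = 0.0126). Against WT with LDL, the log2FC of Cd274 was -0.25 in Jak2VF (adjusted p = 0.21) and 1.02 in Dnmt3aKO (adjusted p = 1.9e-05). Slc1a1, a glutamate transporter, averaged 3.95 CPM in Jak2VF and 7.96 CPM in Dnmt3aKO (log2FC -1.01), and against WT it was lower in Jak2VF (-1.51) and in Dnmt3aKO (-0.49). Il33, the large rise described above, also lies in this window, 612034 bases from Jak2.

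All 15 mitochondrial transcripts in the table were listed at 0 in the 6 libraries. Of 20 T and NK cell markers 2 were higher and 4 lower (2 without Dnmt3aKO library 2, Jak2VF library 1 or Jak2VF library 3), with sums of 86.6 to 95.3 CPM in Jak2VF, against 118 to 136 CPM in Dnmt3aKO. Of 16 dendritic cell markers 0 were higher and 5 lower. Of 11 erythroid markers 1 was higher and 2 lower: Ank1, an erythroid membrane protein, was lower in Jak2VF (log2FC -1.66), and Tfrc, the transferrin receptor, higher (0.53), although not without Dnmt3aKO library 2 (adjusted p = 0.0791) or 3 (adjusted p = 0.0522). The erythroid markers summed to 136 to 161 CPM in Jak2VF, against 98.6 to 130 CPM in Dnmt3aKO. Over all genes tested, 8.61% were higher and 7.04% lower. The higher shares of the T and NK cell markers (10.0%) and of the erythroid markers (9.09%) were near that of all genes.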
